A study of Mus musculus with 18 samples.

Results

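The binding of the mouse transcription factor CREB1 to DNA with 5-hydroxymethylcytosine (5hmC) was compared with its binding to DNA with unmodified cytosine (C). The comparison rests on 4 of the 18 arrays of the series, 2 with 5hmC DNA and 2 with unmodified DNA, chosen by their sample labels alone. The assay is a protein binding microarray: a protein with a tag is laid over an array of DNA duplexes of known sequence, and the fluorescence of an Alexa Fluor label gives the amount bound to each probe. Only the DNA-binding domain of CREB1 and the residues next to it were used, as a fusion with glutathione S-transferase that was produced in a cell-free reaction, so the activation domains of CREB1 were not present. Both groups had the same 40330 probes of 35 variable bases, which a polymerase made double-stranded with 5hmC or with C in the nucleotide mix. In the 5hmC group every C of the synthesized strand was thus hydroxymethylated, in CpG and elsewhere, while the printed strand kept plain C. Whether separate batches of protein were used for the 2 arrays of a group is not given in the labels, so the p-values reflect the spread from array to array, which may be purely technical.

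CREB1 is a basic leucine zipper (bZIP) protein: it binds as a dimer, each monomer placing its basic region in the major groove over one arm of the site. Its best-known site is the cAMP response element (CRE), a palindrome of a pair of TGAC arms that meet at a central CpG, through which it activates genes in response to cAMP. The C/EBP proteins are other bZIP factors and read the arm GCAA, and a composite site joins a TGA arm of the CRE to a GCAA arm. 5hmC is the oxidation product that TET enzymes make from 5-methylcytosine (5mC), and it is common in the DNA of neurons and embryonic stem cells. Binding of CREB1 to GCAA with either modified base is the subject of the study by its title.

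An 8-mer is written 5′ to 3′ as it reads on the synthesized strand, and its reverse complement is the same duplex with the modification on the other strand. The sites below are those that the results turn on, each followed by its reverse complement where it is not a palindrome. Capitals mark the cytosines that were hydroxymethylated on the 5hmC arrays.
CRE palindrome TGACGTCA: tgaCgtCa
CRE arm with TAA, TGACGTAA: tgaCgtaa
the same duplex turned, TTACGTCA: ttaCgtCa
CRE-C/EBP chimera TGACGCAA: tgaCgCaa
the same duplex turned, TTGCGTCA: ttgCgtCa
CpG-free composite TGATGCAA: tgatgCaa
the same duplex turned, TTGCATCA: ttgCatCa
TTATGCAA: ttatgCaa
the same duplex turned, TTGCATAA: ttgCataa
C/EBP palindrome TTGCGCAA: ttgCgCaa

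The next 6 probes show what was on the array for the composite site. They are the probes with the lowest, middle and highest change in signal between the groups among those that passed a screen for other bZIP words. Probes with TGATGCAA on the modified strand come first, then those with it on the unmodified strand. The screen did not catch every C/EBP arm. The probe printed as highest for the modified strand also holds TTGCT and TTGCC, and that for the unmodified strand AGCAA. Each is the 35 variable bases of the synthesized strand, in which every c or C was hydroxymethylated in the 5hmC group, and capitals mark the 8-mer.
modified strand, lowest: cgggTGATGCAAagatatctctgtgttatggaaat
modified strand, middle: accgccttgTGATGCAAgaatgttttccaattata
modified strand, highest: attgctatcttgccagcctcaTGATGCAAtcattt
unmodified strand, lowest: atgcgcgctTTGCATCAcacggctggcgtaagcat
unmodified strand, middle: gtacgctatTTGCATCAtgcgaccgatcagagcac
unmodified strand, highest: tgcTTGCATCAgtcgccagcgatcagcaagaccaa

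Binding to an 8-mer is given as the deposited z-score of each array, a linear score with a median near 0 and no true zero, so differences and not folds are taken from it. Where a fold is given, it is a probe signal less its local background over the array median, for an 8-mer the median of its probes. The median 8-mer was carried by 17 probes. Median probe signals were 1249 and 1298.5 on the 5hmC arrays and 1612 and 2135 on the C arrays, which was 1.85 and 2.78 times the local background with 5hmC and 2.12 and 3.64 times with C. Over all 8-mers, which are not independent, z-scores correlated with Pearson r of 0.853 between the 5hmC arrays and 0.957 between the C arrays, against 0.411 to 0.493 across the groups.

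With 5hmC fewer 8-mers reached a fixed z-score cutoff, taken here as bound, and the ones at the top of the list were different. The count at a cutoff depends on the scale of each array and differed between the C arrays too. How far array signal or the amount of protein adds to the difference between the groups was not tested. At a z-score of 4 or more, 1121 and 1175 8-mers were bound on the 5hmC arrays, against 2766 and 3902 on the C arrays. Of these, 738 were bound on both 5hmC arrays and 2566 on both C arrays, and 409 were bound on all 4. Among the 738 8-mers of the 5hmC group, 48.6% held a CpG and 9.21% held ACGT, the centre of the CRE, against 79.4% and 31.3% of the 2566 of the C group. The C/EBP arm GCAA was in 28.3% of the 8-mers bound with 5hmC and in 1.87% of those bound with C, while its reverse complement TTGC was in 2.44% and 1.33%. In all tested 8-mers the share was 38.2% with a CpG and 1.96% with each of ACGT, GCAA and TTGC. CpG and ACGT were thus above their background in both groups, and by less with 5hmC.

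By limma with Benjamini-Hochberg adjustment over 65121 8-mers, 7.89% of all 8-mers passed an adjusted p of 0.05. The part that was higher on 5hmC DNA was 1.12% (728 8-mers) and the part that was lower was 6.78% (4412 8-mers). The arrays of the 2 groups did not overlap at any of them, which adds no support, since 2 arrays against 2 often separate without a change. The median change over all 8-mers was -0.06. These shares are the background for every count below.

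**Figure D1:**
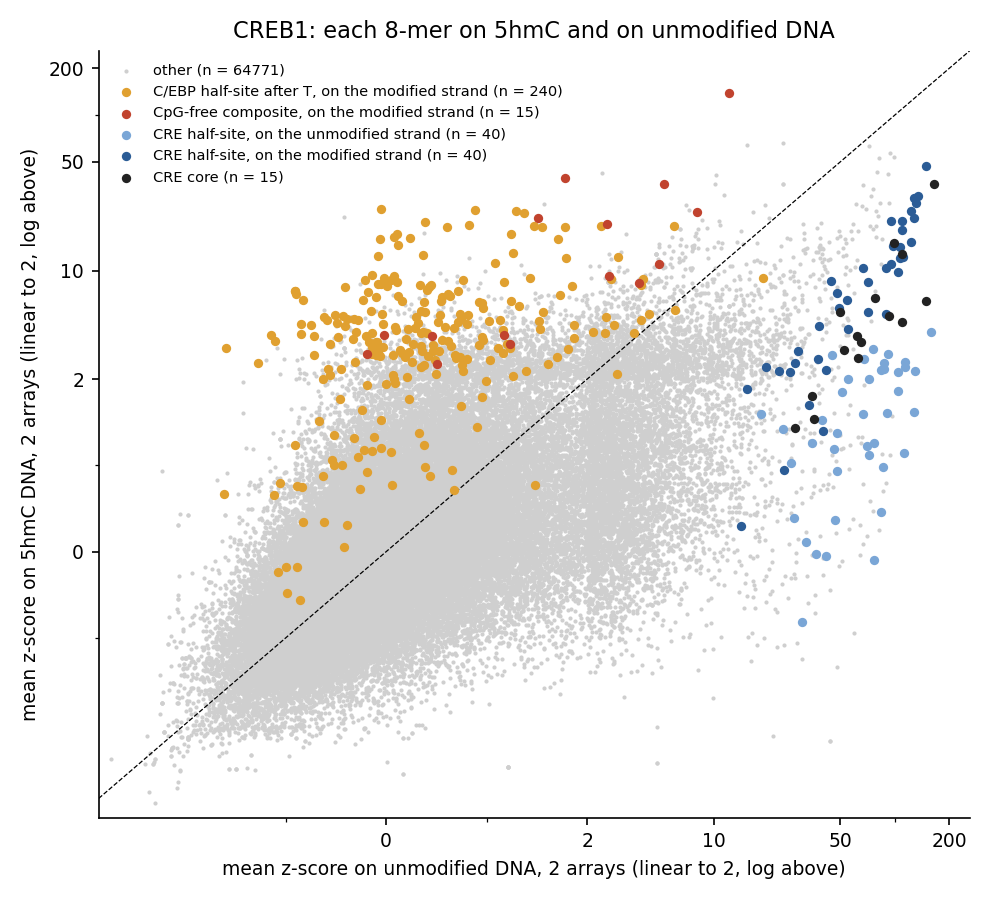
Mean z-score of each of the 65121 8-mers on 5hmC DNA (vertical) against unmodified DNA (horizontal), both axes linear up to 2 and logarithmic above, with a dashed line where the means are equal. CRE half-site and core 8-mers lie below the line, those with the half-site on the unmodified strand lowest at a median of 1.56 on 5hmC DNA, and the composite TGATGCAA stands highest at 139.

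The 10 highest 8-mers of each group shared only TGACGTAA. On 5hmC DNA the order of mean z-scores was led by TGATGCAA (139 ± 35.7, SD, n = 2), followed by TACGCAAT (66.6 ± 18.8), ACGCAATA (64.5 ± 13.7) and TGACGCAA (63.4 ± 5.88), which all hold GCAA. Next came GATGACGC (57.3 ± 17.0), GTGACGCA (53.8 ± 16.3) and ATGACGCA (53.4 ± 10.6), each with the CRE arm TGACG followed by C. TGACGTAA, CGATGACG and TTATGCAA closed the list at 47.1 ± 12.7, 43.2 ± 12.8 and 42.3 ± 25.0. After TGATGCAA, neighbours in this order differed by less than the larger SD of the pair. On unmodified DNA all 10 held ACGT, from TGACGTCA at 165 ± 39.97 and ACGTCACA at 159 ± 26.9 down to AGTGACGT at 128 ± 7.20.

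The full CRE lost most of its score on 5hmC DNA. TGACGTCA had z-scores of 27.5 and 44.9 with 5hmC, against 193 and 136 with C. The change of -129 ± 15.2 (SE) had an adjusted p of 6.14e-06 by limma. As signal over the array median the site was at 9.42 and 6.82 with 5hmC and at 59.1 and 31.3 with C. On that scale in log2 the change was -2.42 and did not pass (adjusted p = 0.26). On the C arrays 4 and 8 of the 19 probes of this 8-mer were saturated, and none was with 5hmC.

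The score that was left at a single CRE arm on 5hmC DNA differed with the strand that carried the arm. TGACGTAA, with its TGAC arm on the modified strand, had z-scores of 38.1 and 56.1 with 5hmC and 154 and 146 with C (adjusted p = 1.9e-07). Its reverse complement TTACGTCA, the same duplex with that arm on the plain strand, had 2.43 and 2.05 with 5hmC and 91.4 and 117 with C (adjusted p = 2.65e-05). With 5hmC the first orientation was thus high on each array and the turned one was close to the array median, while with C both were high. In signal over the array median TTACGTCA was at 1.74 and 1.32 with 5hmC against 30.6 and 30.5 with C, and TGACGTAA at 12.0 and 9.79 against 48.4 and 37.2.

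The strand difference, the z-score of an 8-mer minus that of its reverse complement on the same array, was compared between the groups for 32225 pairs, of which 4.25% changed. For TGACGTAA it was not called on the linear scale (-0.84 ± 9.93 SE, adjusted p = 0.983), where the orientations fell by 103 and 102 units. On the log2 signal scale, where a change is a ratio, it was 2.36 (adjusted p = 0.015) in favour of the TGAC arm on the modified strand. The change of TGACGTAA itself was not called on the log2 scale (-1.97, adjusted p = 0.459) and that of TTACGTCA was (-4.33, adjusted p = 5.24e-06).

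The 10 largest falls among 8-mers that passed were all of CRE sites, most of them with the arm on the unmodified strand. TGACGTCA is one of them, and in 7 of the other 9 the arm is written ACGTCA, which puts TGAC on the unmodified strand. ACGTCACA had 4.94 and 3.09 with 5hmC against 178 and 140 with C, and CACGTCAT had 0.84 and 2.40 against 142 and 115. Turned, the first is TGTGACGT, which kept 14.2 and 15.5 with 5hmC against 95.7 and 102 with C. That pair had the largest strand change of the CRE pairs that passed (-71.1 ± 9.08 SE for ACGTCACA minus TGTGACGT, adjusted p = 0.00013). Its orientations differed by more on the C arrays, where neither strand was modified, than on the 5hmC arrays. In log2 the strand change was -1.82 (adjusted p = 0.0155 by limma). The 2 falls with the arm on the modified strand were TGACGTGG (12.1 and 18.4 against 129 and 116) and AGTGACGT (13.7 and 30.05 against 123 and 133).

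Over the lists, all 15 CRE core 8-mers fell, with a median z-score of 4.63 with 5hmC against 64.9 with C. So did all 40 8-mers with the half-site TGACGT on the modified strand (8.53 against 71.4) and all 40 with it on the unmodified strand (1.56 against 71.1), where 6.78% of all 8-mers fell. The half-site scored higher on the modified strand than on the other in 34 of 40 pairs on both 5hmC arrays, and in 18 of 40 on both C arrays. Of the 40 strand differences 15 rose and 6 fell on the linear scale, and 14 rose and none fell in log2, where 35 lay above 0. The 6 falls were 11 without C replicate 2. One of the 6 was TGACGTGG minus CCACGTCA, at -22.8 ± 3.69 (SE, adjusted p = 0.00121) on the linear scale and at 1.12 in log2 (adjusted p = 0.241). With quantile normalization 13 of the core, 18 of the modified-strand and 40 of the unmodified-strand 8-mers fell, and with only the 4 compared arrays in the fit 7, 25 and 16.

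**Figure D2:**
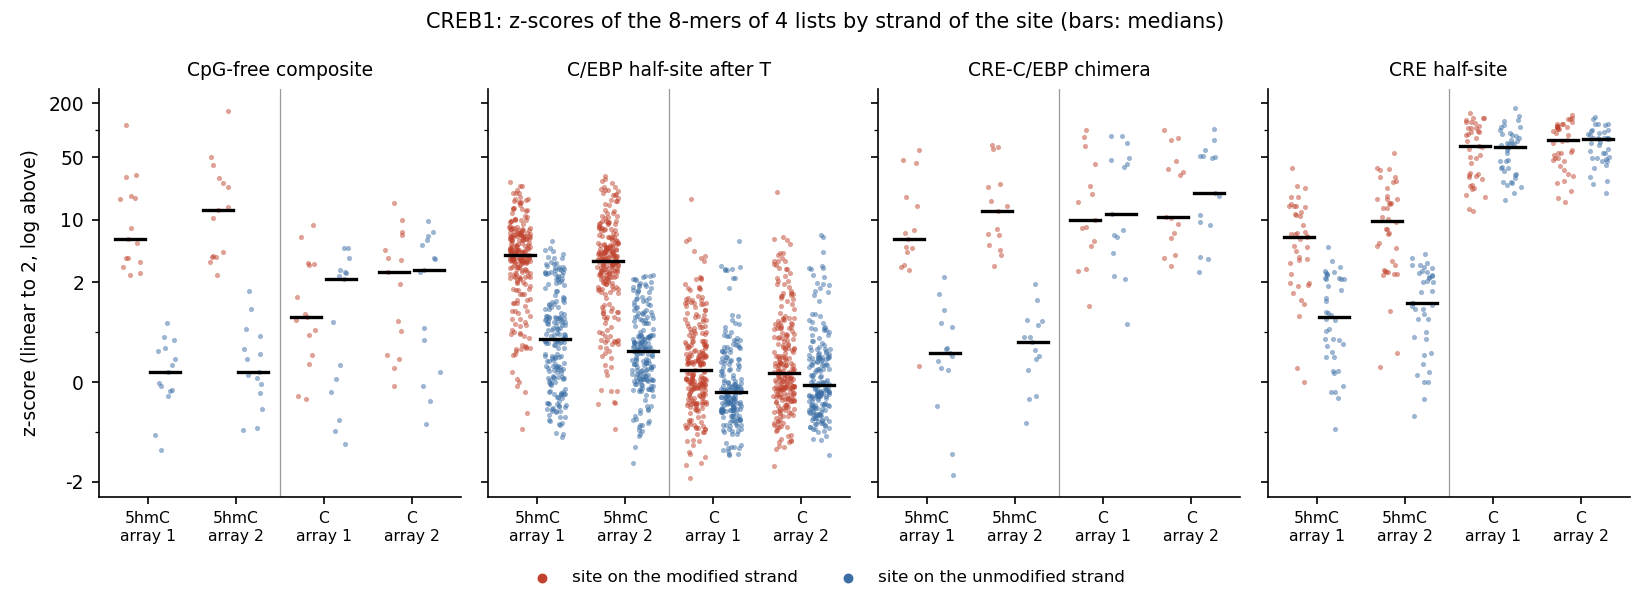
z-scores of the 8-mers of 4 lists on each array (points; bars are medians; axis linear up to 2 and logarithmic above), in red where the site is on the modified strand and in blue where it is on the unmodified strand. On both 5hmC arrays the red medians stand above the blue ones in every list, and for the CRE half-site on C arrays they are 65.8 (red) and 65.4 (blue), and 77.1 and 79.9.

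The chimera list joins TGAC to GCAA with a CpG between them and was split by strand on 5hmC DNA. TGACGCAA had 59.2 and 67.6 with 5hmC and 66.4 and 78.1 with C, a change of -8.84 ± 12.6 (SE) that did not pass (adjusted p = 0.793). Its reverse complement TTGCGTCA had 2.32 and 1.65 with 5hmC against 38.5 and 51.4 with C and fell (adjusted p = 1.33e-06). The C arrays thus scored both orientations, and the 5hmC arrays only the one with TGAC and GCAA on the modified strand. This strand change itself did not pass for TGACGCAA (34.1 ± 22.0 SE, adjusted p = 0.513; 2.86 in log2, adjusted p = 0.125).

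ATGACGCA, a chimera 8-mer shifted by a base, had 45.9 and 60.9 with 5hmC and 82.8 and 82.1 with C (adjusted p = 0.271). Turned, TGCGTCAT had 1.10 and 1.14 with 5hmC against 85.1 and 104 with C (adjusted p = 0.000119). For this pair the strand change passed, at 64.3 ± 8.67 (SE, adjusted p = 0.000212) and 3.68 in log2 (adjusted p = 0.00799). In the list, 5 of 15 8-mers fell and 0 rose by limma on the modified strand (6 lower and 1 higher at an unadjusted p under 0.05), and 14 of 15 fell on the unmodified strand (8 with only the 4 compared arrays). Median z-scores were 9.79 with 5hmC against 10.4 with C for the modified strand and 0.75 against 15.8 for the other. The close medians of the modified strand hide falls, as the median change of an 8-mer was -8.65 there and -14.8 on the other. The change of the strand difference favoured the modified strand in all 15 pairs, and 6 passed, or 7 in log2.

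With quantile normalization, which gives every array the same distribution, the z-scores of TGACGCAA, GATGACGC, GTGACGCA and ATGACGCA were higher and not lower with 5hmC (by 56.7, 34.8, 28.3 and 38.2, adjusted p between 6.57e-06 and 0.00396), and in the list 3 rose and 0 fell. The count of 5 falls was 1 without 5hmC replicate 1 and 3 without C replicate 2. The direction at chimera sites on the modified strand thus depended on the scaling of the arrays, while the change of the strand difference lay above 0 in all 15 pairs under every alternative run.

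Other CpG sites of the bZIP and E-box kind fell as well. TTACGTAA, the site of the PAR bZIP proteins, had 14.8 and 17.2 with 5hmC against 84.3 and 86.9 with C (adjusted p = 0.000111), and all 15 PAR 8-mers fell (10 with quantile normalization and 2 with only the 4 compared arrays). Of 1110 other 8-mers with ACGT 920 fell. The E-box CCACGTGG, a site of basic helix-loop-helix proteins, had 2.01 and 3.06 against 4.63 and 10.5 (adjusted p = 0.0106), and 27 of 48 E-box 8-mers fell. The AP-1 sites TGACTCA and TGAGTCA, bound by FOS and JUN dimers, gave no call in 16 8-mers by limma, nor any at an unadjusted p under 0.05. TGACTCAT had 0.80 and 1.62 with 5hmC and 4.51 and 11.5 with C. Its change was -6.79 ± 13.2 (SE, adjusted p = 0.859), while the SE at CCACGTGG was 1.22. The SE rests on the spread over all arrays of the series. A fall of this size could not be called at TGACTCAT. The lack of calls thus does not show that AP-1 sites were unchanged. On the modified strand the median AP-1 z-score was 0.87 with 5hmC against 3.08 with C. On the unmodified strand it was 1.42 against 5.48.

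The TGAC arm outside CpG and AP-1 sites was split in the same direction. On the modified strand 156 of 848 8-mers fell and 1 rose, and on the unmodified strand 320 of 848 fell and none rose. Their medians were 0.92 with 5hmC against 2.16 with C on the modified strand and 0.35 against 1.93 on the other. Of 847 strand differences 109 rose and 18 fell. Few sites of other families passed: 0 of 94 GC box 8-mers did by limma, 1 of 95 ETS and 2 of 96 GATA 8-mers fell, and 1 homeodomain 8-mer rose and 2 fell of 48. An unadjusted p under 0.05 was found for 2 GC box, 11 ETS, 6 GATA and 13 homeodomain 8-mers, against 12144 of all 65121. Of the 13 homeodomain 8-mers 10 were higher and 3 lower, and the largest fall in that list was -14.6.

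The largest gain was at TGATGCAA with its GCAA arm on the modified strand. TGATGCAA had z-scores of 113 and 164 with 5hmC against 8.81 and 15.4 with C, a rise of 126 ± 16.4 (SE, adjusted p = 1.91e-05). As signal over the array median it was at 30.3 and 26.8 with 5hmC and at 3.36 and 4.85 with C, a log2 change of 2.82 (adjusted p = 0.0187). With TGATGCAA on the unmodified strand the same duplex, written TTGCATCA, had 0.85 and 0.67 with 5hmC against 3.70 and 5.92 with C and fell (adjusted p = 0.00563). The duplex was thus the most strongly bound on 5hmC DNA in one orientation and near the array median in the other. Its strand change of 131 ± 18.6 (SE, adjusted p = 0.000365) was the largest of the pairs that passed. In log2 the strand change was 3.76 and did not pass (adjusted p = 0.119).

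The other large rises had GCAA on the modified strand too, except GTGATGCA, which ends in TGCA. TTATGCAA had 24.6 and 59.9 with 5hmC against 1.68 and 3.14 with C (adjusted p = 0.00101), while turned, as TTGCATAA, it had 3.01 and 1.11 against 2.03 and 0.55 (adjusted p = 0.753). GATGCAAT had 29.7 and 49.7 against 0.94 and 2.62, and its reverse complement ATTGCATC 0.20 and -0.05 against 0.07 and 2.73. GTGATGCA had 31.2 and 40.5 against 3.27 and 7.36, and turned, as TGCATCAC, it fell (-0.16 and 0.57 against 4.80 and 9.67, adjusted p = 0.000138). TTGCAATA had 23.6 and 26.0 against 0.08 and -0.18, and here the turned 8-mer TATTGCAA, which also holds GCAA, rose too (7.42 and 2.73 against 0.05 and -0.91, adjusted p = 0.0288). All 10 of the largest rises among 8-mers that passed held TGCA and none held a CpG. The remaining 5, TATGCAAC, CCATGCAA, ATGCAATA, TATGCAAT and TGCAATAC, had means between 22.0 and 27.0 with 5hmC against means between -0.42 and 1.57 with C. ACGCAATA and TACGCAAT, which hold a CpG and no TGCA, were higher by 49.3 and 42.5 and did not pass.

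Of 15 8-mers with the composite TGATGCA or GATGCAA on the modified strand 10 rose and none fell, against 1.12% of all 8-mers that rose, with a median of 9.16 with 5hmC against 1.78 with C. On the unmodified strand none of 15 rose and 6 fell (0.23 against 1.93; 2 fell without C replicate 2 and 2 with quantile normalization). The change of the strand difference favoured the modified strand in all 15 pairs and 12 passed, where 4.25% of all pairs passed. For TTATGCA or TATGCAA 8 of 15 rose on the modified strand (6.29 against 0.99), and on the unmodified strand none of 15 passed by limma (1 at an unadjusted p under 0.05). The count of 10 for the composite was 2 when the fit held the CREB1 arrays alone, 5 without either C replicate 1 or 5hmC replicate 2, and 14 after a filter on dim 8-mers. The count of 12 strand differences was 3 with only the CREB1 arrays and 5 in log2.

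Changing single bases of TGATGCAA showed how narrow the site was on 5hmC DNA. Positions are counted from 1 at the 5′ end. The 24 8-mers that differ from it by a single base had mean z-scores between -0.22 and 63.4 with 5hmC, with a median of 4.12, against 139 for the site itself. With C they lay between -0.19 and 72.2, with a median of 1.10. A pair of neighbours stood out on 5hmC DNA. T4C makes the chimera TGACGCAA, at 63.4 ± 5.88 with 5hmC and 72.2 ± 8.28 with C, and G2T makes TTATGCAA at 42.3 ± 25.0 and 2.41 ± 1.03. The first was high in both groups and the second with 5hmC only.

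Of the 24 neighbours 11 rose and none fell, and after TTATGCAA and CGATGCAA the other 9 rises were by 2.26 to 6.52. CGATGCAA (T1C) had 17.6 and 25.8 with 5hmC against 1.05 and 1.97 with C (adjusted p = 0.0105), and all 3 changes at position 1 and all 3 at position 2 rose. C6T removes the only modified base and gives TGATGTAA, which had 10.9 and 23.8 against 5.10 and 11.0 (adjusted p = 0.0562). T4A, a change in the middle of the site to TGAAGCAA, had 0.12 and -0.57 against 0.81 and 0.50. A7G (TGATGCGA) and A7C (TGATGCCA) within the GCAA arm had means of 5.55 and 1.81 with 5hmC, against 4.97 and 0.80 with C. The last 4, which did not pass, were picked out after their values were seen.

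The neighbours of the CRE behaved differently. On 5hmC DNA the 24 neighbours of TGACGTCA had mean z-scores from -0.66 to 47.1, with a median of 2.56, and on unmodified DNA from 3.04 to 149.9, with a median of 36.4. Of the 24, 21 fell and none rose, and the 3 that did not pass (TGAAGTCA, TGACTTCA and TGACGGCA) were at or below 5.60 with C. C7A, which is TGACGTAA, was the only neighbour above the palindrome on 5hmC DNA (47.1 ± 12.7, and 36.2 ± 12.3 for the palindrome, a gap smaller than the SDs). G2T is the same duplex turned, TTACGTCA, and at 2.24 ± 0.27 it was close to the median of the neighbours, while on unmodified DNA it was at 104 ± 18.2. C7G and C7T, which remove the same C as C7A does, gave means of 7.19 and 8.46 with 5hmC against 48.3 and 71.6 with C.

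**Figure D3:**
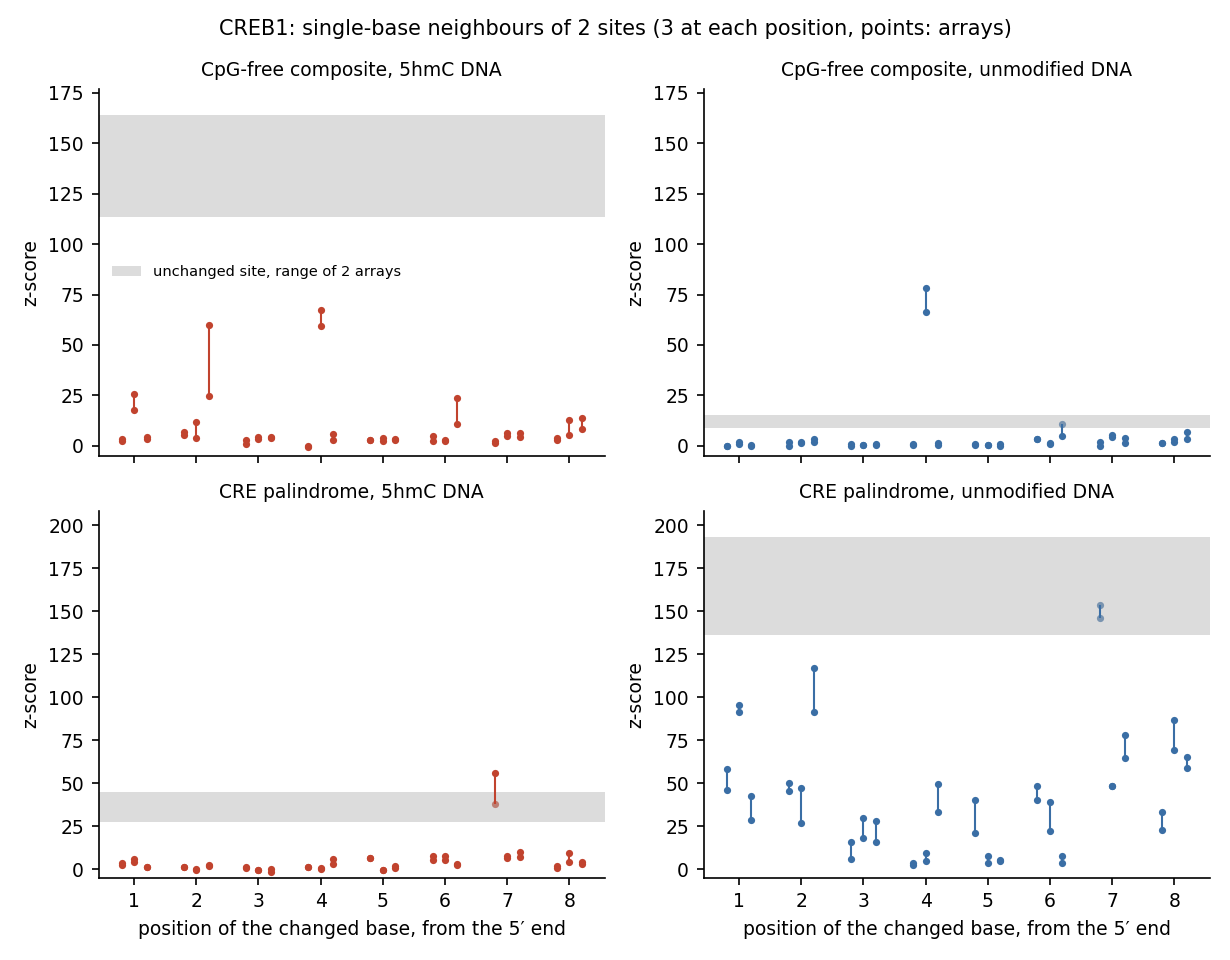
z-scores of the 24 single-base neighbours of the CpG-free composite (top) and the CRE palindrome (bottom) by the position changed, on 5hmC DNA (left, red) and unmodified DNA (right, blue). A line joins the 2 arrays of a neighbour and the grey band is the range of the unchanged site. Around the composite T4C (63.4) and G2T (42.3) are highest on 5hmC DNA, and around the CRE only C7A (47.1) reaches the band there.

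The counts at the half-site GCAA differed with the base before it. After T, 133 of 240 8-mers outside the earlier lists rose and none fell on the modified strand, with medians of 3.88 with 5hmC against 0.26 with C. With TGCAA on the unmodified strand 6 of 192 rose and 1 fell (0.72 against -0.13). After A or G, 58 of 512 rose and 2 fell on the modified strand (1.20 against -0.10), and 8 of 511 rose and 9 fell on the other. After C, where the half-site holds a CpG, 1 of 240 rose and none fell on the modified strand (2.26 against 0.83; 20 higher and 1 lower at an unadjusted p under 0.05). On the unmodified strand 2 of 240 rose and 34 fell (0.44 against 0.67). The background in these lists was again 1.12% higher and 6.78% lower.

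The count of 133 after T was 41 on the linear signal scale, 65 with only the CREB1 arrays and between 72 and 92 with an array left out (86 without C replicate 1, 75 without 5hmC replicate 1, 72 without C replicate 2). With TGCAA on the unmodified strand the 6 rises were 0 without C replicate 1, 0 without 5hmC replicate 1 and 1 without C replicate 2 by limma (43 were higher at an unadjusted p under 0.05 with all arrays). The count of 58 after A or G ran from 7 to 95 (16 without C replicate 1, 14 without 5hmC replicate 1, 11 without C replicate 2, 95 without 5hmC replicate 2). The count of 1 after C ran from 0 to 37, with 37 for only the 4 compared arrays, and the 34 falls on the unmodified strand were 22 without C replicate 2 and 11 with quantile normalization.

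Over all 8-mers with TGCAA, those of the earlier lists included, the counts differed with the bases on either side. Of the 48 8-mers with TGCAAT on the modified strand 47 rose, and the medians were 8.16 with 5hmC and 0.06 with C. With ATGCAA 37 of 48 rose (7.78 against 1.17), with GTGCAA 26 (4.12 against 0.28), with TTGCAA 26 (4.22 against 0.35) and with CTGCAA 20 (1.21 against -0.44). The 8-mers with ATGCAA take in TGATGCAA and TTATGCAA, which were described above. TTGCAA is its own reverse complement, so its 8-mers hold the GCAA arm on both strands. These longer words were chosen after the data were seen and are a description. In the same way GCAAT held 106 rises in 256 8-mers and GCAAC 57, while GCAAG held 20 and GCAAA 8.

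Where C came before GCAA, the medians differed with the base before that C. These words were again counted over all 8-mers, so that ACGCAA takes in the chimera TGACGCAA and GCGCAA the palindrome TTGCGCAA. The 48 8-mers with ACGCAA had medians of 9.56 with 5hmC and 5.75 with C, and those with GCGCAA 2.47 and 0.89, with TCGCAA 1.65 and 0.53 and with CCGCAA 1.20 and -0.01. ACGCAATA had 54.9 and 74.2 with 5hmC against 11.4 and 19.0 with C, a change of 49.3 ± 18.3 (SE) that did not pass (adjusted p = 0.12). Turned, TATTGCGT had 2.13 and 1.26 with 5hmC against 14.8 and 18.2 with C and fell (adjusted p = 1.63e-07). The strand change of this pair passed (64.1 ± 14.4 SE, adjusted p = 0.0156; 3.58 in log2, adjusted p = 0.00478). For TACGCAAT, at 53.3 and 79.9 against 18.3 and 29.9, neither the change (42.5 ± 16.9 SE, adjusted p = 0.156) nor the strand change did. Its strand change was 61.7 ± 165 (SE, adjusted p = 0.916), an SE too large for a call, and 2.95 in log2 (adjusted p = 0.0593). No call was made in the 15 8-mers of the C/EBP palindrome by limma (1 was higher at an unadjusted p under 0.05), where TTGCGCAA had 6.97 and 10.4 with 5hmC and 3.73 and 5.81 with C.

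GCAA did not account for all gains. Of the 728 8-mers that rose 242 (33.2%) held GCAA and 48 (6.59%) held TTGC. TGTAA was in 70 (9.62%) and TGATG in 32 (4.4%), and 54.3% held any of these words or TGCA. TGTAA has no C, so that no base of the word was modified where it lay on the synthesized strand. Of the 256 8-mers with it 70 rose and 2 fell (medians of 2.41 with 5hmC and 1.06 with C), while of those with TTACA, its reverse complement, 4 rose and 28 fell. TGATG, the CRE arm of the composite with no C either, rose in 32 and fell in 8 of 255. CATCA, its reverse complement with 2 modified cytosines, rose in none and fell in 120 of 254. Of 254 pairs with TGATG 108 strand differences rose and 2 fell.

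Both kinds of call differed with the number of cytosines on the modified strand. Of 6556 8-mers with no C there 2.52% rose and 0.259% fell, and the median z-score was 0.40 with 5hmC and -0.02 with C. With 1 C the shares were 1.55% and 5.55%, with 2 they were 0.96% and 8.81%, with 3 they were 0.595% and 8.6%, with 4 they were 0.234% and 7.21%, and with 5 they were 0.0758% and 4.09%. The 171 8-mers with 6 C held 1 call each way (0.585%), and 9 had 7 C. Thus 165 of the 728 rises (22.7%) were at 8-mers with no modified base of their own. Flanking probe bases were modified there too, and their part in the result was not tested. CpG content went with the falls: 2.8% of 8-mers with C but no CpG fell, against 12.8% with 1 CpG and 20.5% with 2 or more. A CpG was in 78.2% of all falls and in 38.2% of all tested 8-mers.

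**Figure D4:**
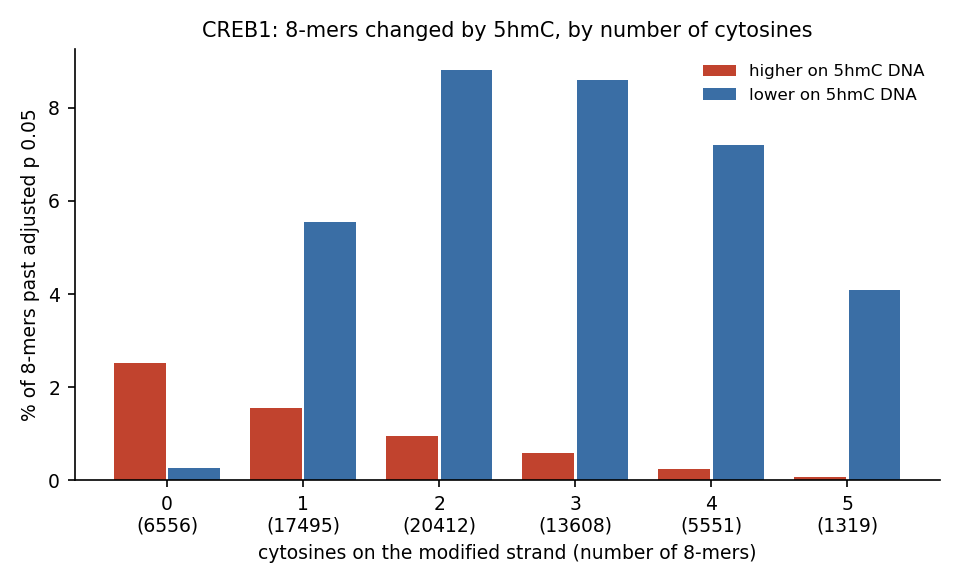
Share of 8-mers (%) that were higher (red) or lower (blue) on 5hmC DNA at an adjusted p of 0.05, by the number of cytosines on the modified strand, with the number of 8-mers in parentheses. The share higher goes from 2.52% with no C to 0.0758% with 5, and the share lower peaks at 8.81% with 2 and is 4.09% with 5.

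The falling words were also split by strand. CGTCA fell in 249 of 255 8-mers and TGACG in 218 of 256, and the medians were 0.38 with 5hmC against 24.1 with C for the first and 5.61 against 24.5 for the second. Of 8-mers with GTCAC 211 of 256 fell, against 137 of those with GTGAC, and of those with GTCAT 192 fell, against 82 of those with ATGAC. In each of these pairs the count was higher for the word that puts TGAC on the unmodified strand, and the counts were not compared by a test. Among words with the self-complementary ACGT, ACGTA fell in 253 of 256 and TACGT in 251 of 256. Nearly all of these fell, so the counts could hardly show a strand difference. AACGT fell in 185 of 256 and its reverse complement ACGTT in 171 of 256.

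The single probes showed the same at the composite site. All 17 probes with TGATGCAA on the modified strand were brighter on both 5hmC arrays than on either C array relative to the array median, with medians of 30.1 and 26.7 times the array median against 3.29 and 4.73. The middle probe printed above was at 42.4 and 26.7 with 5hmC against 2.76 and 3.04 with C, the lowest at 5.08 and 3.29 against 1.46 and 1.38, and the highest at 123 and 78.1 against 26.6 and 18.3, with a saturated signal on the first 5hmC array. Probes that held the same 8 bases ranged from 3.86 to 123 on the first 5hmC array and from 2.97 to 78.1 on the second. Of the 18 probes with the site on the unmodified strand 2 were brighter on both 5hmC arrays and 9 dimmer, with medians of 1.12 and 1.05 against 1.88 and 2.25. Among these, the probe printed as highest was at 5.58 and 0.907 with 5hmC against 0.423 and 1.35 with C, so that only 1 of the 2 arrays showed it.

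**Figure D5:**
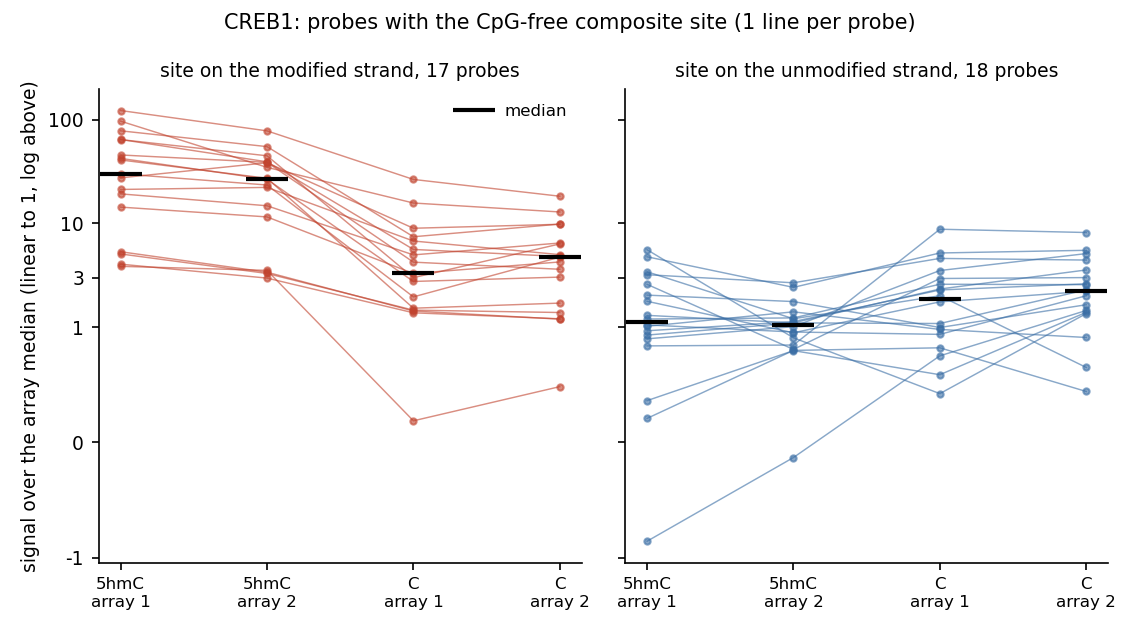
Background-subtracted signal over the array median (linear up to 1, logarithmic above) of the 17 probes with TGATGCAA on the modified strand (left) and the 18 with it on the unmodified strand (right), 1 line per probe over the 4 arrays, with black bars for medians. On the left every probe is higher on both 5hmC arrays, with medians of 30.1 and 26.7 against 3.29 and 4.73, and on the right the medians are 1.12 and 1.05 against 1.88 and 2.25.

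At the chimera and the CRE arm the probes were split by strand in the same way. Of 17 probes with TGACGCAA on the modified strand 4 were brighter and 4 dimmer with 5hmC relative to the array median (medians of 16.3 and 11.3 against 18.7 and 15.3). Of the 4 brighter ones 2 were saturated on C replicate 2, where their value is a lower bound, so the count of 4 is uncertain. All 18 with it on the unmodified strand were dimmer (1.66 and 1.21 against 12.6 and 13.1). For TGACGTAA 13 of 17 were dimmer on the modified strand (11.9 and 9.74 against 47.4 and 36.4) and 16 of 16 on the unmodified strand (1.73 and 1.32 against 29.9 and 29.8). Leaving out probes flagged by the screen for other bZIP words gave 14 of 14 brighter for TGATGCAA on the modified strand. For TGACGCAA it gave 4 brighter and 1 dimmer of 14 on the modified strand and 14 of 14 dimmer on the unmodified strand. The probes kept were not free of all listed words: a probe with TGATGCAA held TTGCC, and a probe with TGACGCAA held TGACTCA.

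Other large strand changes that passed were of CRE arms with TGACG on the modified strand. GACGTCAC minus GTGACGTC gave -59.8 ± 11.2 (SE, adjusted p = 0.00424) and CGATGACG minus CGTCATCG 47.6 ± 5.30 (adjusted p = 3.47e-05). In log2 the first was -1.45 and did not pass (adjusted p = 0.0604 by limma), and the second was 3.09 (adjusted p = 0.000614). CCGTGACG had 5.51 and 11.3 with 5hmC against 30.8 and 51.0 with C, and its reverse complement CGTCACGG 0.55 and 0.84 against 79.1 and 93.6 (strand change 53.1 ± 2.01 SE, adjusted p = 2.34e-10). Most of this linear strand change lay in the gap between the orientations on the C arrays, where neither strand was modified. In log2 it was 2.34 (adjusted p = 0.000614 by limma). CGGTGACG minus CGTCACCG gave 48.2 ± 5.88 (adjusted p = 8.21e-05), and 2.63 in log2 (adjusted p = 0.00335). GTGCGTCA minus TGACGCAC gave -41.0 ± 6.04 (adjusted p = 0.000499), the same direction read from the other strand, and -1.79 in log2 (adjusted p = 0.017). CCCCTCAA and ATCCCCTC, with no bZIP word, gave -46.8 ± 3.04 and -46.6 ± 2.84, and neither passed in log2 by limma (adjusted p = 0.0528 and 0.269). They were carried by only 2 and 1 probes and had identical z-scores on these arrays.

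The change with 5hmC was then set against that with 5mC, the methylated form without the hydroxyl group, in a direct contrast of the CREB1 arrays, where 0.952% of 8-mers differed (121 higher and 499 lower with 5hmC). TGATGCAA was higher with 5hmC (139 ± 35.7 against 56.8 ± 28.3 with 5mC, adjusted p = 0.0159), as were GTGATGCA (adjusted p = 0.0291), CCATGCAA (24.4 ± 9.30 against 6.51 ± 2.14, adjusted p = 0.00121) and TGATGTAA (adjusted p = 0.0416). CGCAA was lower with 5hmC in 175 of 240 8-mers on the modified strand and in 3 of 240 on the other, where 1 was higher. TGCAA on the modified strand was lower in 13 and higher in 1 of 240. No 8-mer of the CRE half-site and core lists passed by limma in this contrast, nor did any have an unadjusted p under 0.05. The SE rests on the spread over all 18 arrays and was large there. TTACGTCA had 2.24 ± 0.27 with 5hmC and 5.07 ± 1.29 with 5mC, a difference of -2.83 ± 13.6 (SE). Differences of this size could not be called, so the lack of calls does not show that the 2 modified bases acted alike. The median difference from 5mC at the half-site was 1.51 on the modified strand and -1.53 on the other.

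ATF1, the closest relative of CREB1 in the series, was measured on the same kinds of DNA, and the 5hmC change differed between the proteins at 0.215% of 8-mers (3 higher and 137 lower for CREB1). In the half-site list 2 of 40 on the modified strand and 16 of 40 on the unmodified strand fell further for CREB1, as did 5 of 15 of the core. On unmodified DNA these sites were lower for ATF1: TAACGTCA was at 45.7 and 50.1 for CREB1 and at 14.4 and 16.4 for ATF1. No composite or CGCAA 8-mer on the modified strand passed by limma (5 of 15 and 1 of 240 at an unadjusted p under 0.05). These calls depend on the scale of the score: with quantile normalization and on both log2 scales none was made, although 2154, 2103 and 1852 8-mers had an unadjusted p under 0.05.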

How the data were processed

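Per the file headers, the authors deposited 2 fluorescence intensity values for every probe, its median signal and that of its local background, linear and with no normalization. No source at hand names the scanner or the software. The authors deposited 1 score for each of 65530 8-mers on each array, called a z-score by them. Its formula stands in neither the labels nor the header. On the 4 arrays it ranked 8-mers much as did the median signal less background of probes with the 8-mer on the modified strand (Spearman rho between 0.965 and 0.972). Left out were 409 8-mers that no probe holds. Of the rest 286 were held by a single probe.

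Differences were tested with limma 3.58.1 in R 4.3.3 (lmFit, eBayes with a trend, two-sided, Benjamini-Hochberg at 0.05) on the z-scores of all 18 arrays, with 1 mean for each of 9 groups, so that the spread is shared. Strand differences were tested in the same way over 32225 pairs, without palindromes. The fits were run on simulated data with normal noise of equal spread in every group. That run cannot show how the p-values hold where the spread differs between groups. A log2 scale means log2 of signal less background over the array median.

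The 8-mers named were key sites, the 10 largest rises and falls, the 10 highest of each group, the 5 largest strand changes of each sign (each pair read in alphabetical order), the neighbours of 2 sites and reverse complements. The comparison, lists and named sites were chosen with earlier results of these data known, and the words described as held (those of the CRE arm, TGTAA and the longer or shifted forms of the C/EBP arm) after the values were seen. Alternatives were the replicate block, moderation without a trend, fewer arrays in the fit, quantile normalization, signal in place of z, normexp background correction (offset 50), at least 10 probes, a filter on dim 8-mers (z of 2 on 2 arrays) and each array left out.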

Additional observations from a re-analysis of the deposited data

Results flagged for a closer look

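At 6 of the 8-mers named here the change with 5hmC differed between CREB1 and ATF1 by limma (CREB1 change minus ATF1 change, with its SE and adjusted p). CCATGCAA had a difference of 18.8 (SE 3.71, adjusted p = 0.034). CREB1 had 17.8 and 30.9 with 5hmC against 0.615 and 1.16 with C there, and ATF1 4.37 and 5.54 against 0.474 and 0.0017, so both proteins were higher with 5hmC and CREB1 by more.

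The other 5 hold a CRE arm, and CREB1 fell further than ATF1. The differences were -32.6 at AGACGTCA (SE 5.21, adjusted p = 0.00798), -21.9 at GGACGTCA (SE 4.05, adjusted p = 0.0232) and -31.3 at TAACGTCA (SE 3.78, adjusted p = 0.00165). TGACGTCT gave -33.5 (SE 6.18, adjusted p = 0.0232) and CGTCACGG -54.5 (SE 9.47, adjusted p = 0.0142). ATF1 started lower: at CGTCACGG it had -0.0607 and 0.533 with 5hmC against 28.9 and 33.8 with C, where CREB1 had 0.553 and 0.843 against 79.1 and 93.6. At TGACGTCT ATF1 had 0.335 and 0.668 against 25.8 and 25.0, and CREB1 4.21 and 3.33 against 58.7 and 65.6.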

How the results depend on the processing

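The count of 5140 8-mers changed by 5hmC was 1831 with quantile normalization, of which 1777 were among the 5140. The 728 higher 8-mers were 439 with quantile normalization, 259 on the linear signal scale and 293 in log2, and the 4412 lower ones were 1392 with quantile normalization. The share of lower calls, 85.8%, was 76.0% with quantile normalization and 94.7% on the linear signal scale. With an array left out, the lone array of its group is assumed to vary like the other groups. All calls then numbered 2812 to 4738 (2812 without C replicate 2, 2869 without 5hmC replicate 1), the higher ones 256 to 636 (256 without C replicate 2, 262 without C replicate 1, 294 without 5hmC replicate 1) and the lower ones 2556 to 4476. Strand differences, 1371 in all, numbered 829 with only the CREB1 arrays, 529 with quantile normalization, 234 in log2, 568 with normexp and 762 to 1097 with an array left out. The 620 8-mers that differed from 5mC were 289 with only the CREB1 arrays, 396 with quantile normalization, 282 in log2 and 200 to 513 with an array left out. The 140 that differed from ATF1 were 313 without a trend, 7 with only the CREB1 and ATF1 arrays, 454 on the linear signal scale, 306 after the filter on dim 8-mers and 6 to 1173 with an array left out. They were 0 with quantile normalization, 0 in log2 and 0 with normexp by limma, where 2154, 2103 and 1852 had an unadjusted p under 0.05.

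Direction reversed with quantile normalization at TGACGCAA (56.7), GATGACGC (34.8), GTGACGCA (28.3) and ATGACGCA (38.2). For TGACGTAA minus its reverse complement the main value, -0.84 ± 9.93 (SE), was not called and gave no direction. It was 2.36 in log2 and 2.85 with normexp. The cause of the reversals was not tested. The deviations of arrays with the same replicate number correlated with r = 0.203 over 2 pairs of arrays, so the numbers were not shown to pair the arrays. With the replicate block the counts were 5028 for the change with 5hmC, 1332 for strand, 546 against 5mC and 128 against ATF1. Of 139 named 8-mers, 89 of them called, 32 lost their call with only the 4 compared arrays, 28 with quantile normalization, 21 with only the CREB1 arrays, 17 in log2 and 17 without C replicate 2, and fewer under each other alternative run. Of 14 named strand changes, 11 of them called, 5 lost it with only the CREB1 arrays and 4 in log2. The number of arrays, 2 a group, limits the precision.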
